A study of Mus musculus with 12 samples.

Results

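Genes that mark intestinal stem cells or answer to Wnt signalling, namely Lgr5, Olfm4, Ascl2, Smoc2, Axin2, Rnf43, Znrf3, Tnfrsf19 and Sp5, were followed through 12 RNA-seq libraries of sorted mouse small-intestinal crypt cells. They were picked from the table by gene symbol and are 9 of the 55414 genes of the count table and 9 of the 13057 genes that passed the filter on low counts. All 9 passed it and had counts in every library. Cells were sorted as Paneth or non-Paneth cells from crypts of naive C57BL/6J mice that were wild type (WT) or GRKO, with 3 libraries in each of the 4 groups. GRKO stands for GRvillinKO, a knockout of the glucocorticoid receptor gene Nr3c1 that is named after villin, a gene of the intestinal epithelium. The sources used here do not state which Cre line and allele made it. By the methods of the study, mice were 8 to 12 weeks old, and the Paneth gate took CD24+ cKIT+ cells that were negative for TER119, CD45 and CD31 and had a side scatter from medium to high. How non-Paneth cells were gated is not stated. The groups follow the sample titles, because the genotype field of the labels gives WT for every Paneth library and GRKO for every non-Paneth library. Nothing in the labels says that the 3 libraries of a group came from separate mice, so p-values measure the spread between these libraries, which may be technical.

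In the crypt, Wnt ligands stabilise beta-catenin, which enters the nucleus, joins TCF factors and switches on target genes. The stem cells at the crypt base depend on this signal, and the Paneth cells that sit between them are a source of Wnt ligand and are themselves shaped by it. Several targets act back on the pathway, either by helping to degrade beta-catenin or by removing Wnt receptors from the cell surface. R-spondins, bound by Lgr receptors, relieve the second kind of brake.

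On the GRCm39 assembly with GENCODE vM39, all 9 are protein-coding genes. The stem cell genes are Lgr5 (ENSMUSG00000020140, chr10:115286216-115423685, minus strand), Olfm4 (ENSMUSG00000022026, chr14:80221521-80260579, plus strand), Ascl2 (ENSMUSG00000009248, chr7:142520564-142523006, minus strand) and Smoc2 (ENSMUSG00000023886, chr17:14499735-14625074, plus strand). The feedback genes are Axin2 (ENSMUSG00000000142, chr11:108811169-108841609, plus strand), Rnf43 (ENSMUSG00000034177, chr11:87553548-87626377, plus strand) and Znrf3 (ENSMUSG00000041961, chr11:5226324-5394939, minus strand). The remaining targets are Tnfrsf19 (ENSMUSG00000060548, chr14:61201283-61284366, minus strand) and Sp5 (ENSMUSG00000075304, chr2:70305267-70308073, plus strand). Genes on the opposite strand overlap 14.9% of the exonic bases of Tnfrsf19, 9.66% of Sp5, 8.07% of Rnf43, 7.30% of Lgr5, 3.02% of Axin2, 2.64% of Smoc2 and 0.25% of Znrf3, and Gm6999 overlaps 5.13% of Olfm4 on its own strand. The library kit keeps strand, but the sources used here do not say which strand was counted, so reads in these stretches could be left out or shared.

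RefSeq promoter windows of 300 bases (250 before and 50 after the start, GRCm38.p6 assembly) were at hand for 6 of the genes, in 8 windows, and were searched on both strands for the TCF core CTTTGAT and its forms CTTTGTT and CTTTGAA and CTTTGTA, and for the core of glucocorticoid receptor sites, ACANNNTGT. Olfm4, Ascl2, Axin2 and both windows of Rnf43 held none of these letters. The windows of Sp5 and the first of the 2 windows of Tnfrsf19 did, and they are shown for that reason, 5′ to 3′ with the matches in capitals (Sp5, chr2:70474673-70474972, plus strand, and Tnfrsf19, chr14:61037938-61038237, minus strand, both GRCm38.p6).
Sp5: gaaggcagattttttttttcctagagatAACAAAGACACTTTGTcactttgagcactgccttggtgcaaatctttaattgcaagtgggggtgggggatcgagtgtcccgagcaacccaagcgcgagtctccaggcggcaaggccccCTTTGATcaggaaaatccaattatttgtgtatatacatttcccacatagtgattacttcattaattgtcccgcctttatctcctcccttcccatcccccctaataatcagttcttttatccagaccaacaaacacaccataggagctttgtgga
Tnfrsf19: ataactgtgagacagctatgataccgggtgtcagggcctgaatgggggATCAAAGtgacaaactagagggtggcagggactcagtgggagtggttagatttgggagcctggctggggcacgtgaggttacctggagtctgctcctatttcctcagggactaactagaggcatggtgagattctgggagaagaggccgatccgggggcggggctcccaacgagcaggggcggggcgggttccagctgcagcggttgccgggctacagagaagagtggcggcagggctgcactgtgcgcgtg
In Sp5 the capitals are AACAAAG, which is CTTTGTT on the other strand, 222 bases before the start, the receptor core ACACTTTGT 215 bases before it and CTTTGAT 104 bases before it. The first and second of these adjoin without sharing a base. In Tnfrsf19 they are ATCAAAG, which is CTTTGAT on the other strand, 202 bases before the start. At least 1 of the 4 TCF forms was thus found in 2 of 8 windows, and in 16.9% of all 32851 windows of the table. The receptor core was found in 1 of 8 and in 6.85% of all. CTTTGAT alone lay in 3.73% and CTTTGTT in 5.85% of all windows. Lgr5, Smoc2 and Znrf3 have no entry in that table. Such matches describe these windows and are not shown to be binding sites.

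The libraries held 11126297 to 15910292 counts, and the 9 genes took 0.327 to 0.873% of them, of which Olfm4 took 85.0 to 91.0%. Levels are given as counts per 1000000 counts of the library (CPM). Nr3c1 was at 4.73 to 12.1 CPM in GRKO Paneth against 33.0 to 41.1 CPM in WT Paneth libraries, and at 19.6 to 36.2 against 135 to 160 CPM in non-Paneth libraries, so every library went with its title. The 6 Paneth markers, Lyz1 among them, summed to 345553 to 427472 CPM in Paneth and 435 to 1674 CPM in non-Paneth libraries. Lyz1 and the Defa genes alone took 37.4 to 46.9% of the counts of Paneth libraries and at most 0.139% of non-Paneth libraries. The 5 stromal and endothelial markers summed to at most 0.853 CPM in any library. The 5 immune markers summed to 10.7 to 14.9 CPM in WT Paneth and 8.55 to 29.1 CPM in GRKO Paneth libraries. In non-Paneth libraries they summed to 2.73 to 3.41 CPM in WT and 1.78 to 9.93 CPM in GRKO. Among them Ptprc, the gene of CD45, was at 0.235, 2.68 and 4.31 CPM in WT Paneth and 12.5, 23.3 and 1.64 CPM in GRKO Paneth libraries. Their part in the results was not tested.

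Scaling matters for every comparison between the sorts. Fold changes come from edgeR on counts scaled by TMM, which sets the median gene near 0. TMM factors were 0.656 to 0.826 in Paneth, 1.20 to 1.22 in WT non-Paneth and 1.46 to 1.4998 in GRKO non-Paneth libraries. With library totals only, the median over all genes, on the log2 scale, moved from 0.01 to −0.68 for WT Paneth against WT non-Paneth, from −0.08 to −1.05 for GRKO Paneth against GRKO non-Paneth, from 0.02 to 0.31 for GRKO against WT in non-Paneth libraries and from −0.01 to −0.28 for the interaction. Between the Paneth groups it was 0.03 and 0.05. Changes below are relative to the median gene unless CPM is named, and RNA counts of sorted cells in bulk cannot tell fewer cells of a type from less RNA per cell.

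Per kilobase of exon, Olfm4, a secreted glycoprotein abundant in crypt base columnar cells, stood far above the others in all 4 groups. Its mean of CPM per kb was 1807 ± 241 in WT Paneth, 1105 ± 224 in GRKO Paneth, 1477 ± 270 in WT non-Paneth and 2319 ± 334 in GRKO non-Paneth libraries (SD, n = 3). It ranked 23, 27, 22 and 4 among all genes per kilobase, in the same order. Smoc2, Ascl2, Axin2 and Rnf43 came next in WT Paneth libraries, with means of 21.0, 18.3, 18.1 and 12.2 CPM per kb, and each overlapped with the next in order. Lgr5 followed at 7.99 ± 1.16 CPM per kb and overlapped with Sp5 at 5.41 ± 2.46. Tnfrsf19 (2.87 ± 0.166) and Znrf3 (1.91 ± 0.210) came last and did not overlap. Axin2 took the second place in both non-Paneth groups, at 21.4 ± 2.94 CPM per kb in WT and 31.0 ± 0.949 in GRKO libraries, above Smoc2 without overlap in WT and overlapping with Ascl2 in GRKO. These lengths count the exons of all transcripts, which lowers genes with many of them.

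Lgr5, the R-spondin receptor by which crypt base columnar stem cells are known, was at 87.3, 68.4 and 90.2 CPM in WT Paneth, 49.1, 76.7 and 99.8 CPM in GRKO Paneth, 45.5, 44.9 and 38.9 CPM in WT non-Paneth and 72.2, 70.8 and 99.1 CPM in GRKO non-Paneth libraries (replicates 1 to 3). The WT non-Paneth libraries were below all others, and the other 3 groups overlapped. Olfm4 was at 6168, 4744 and 5268 CPM in WT Paneth, 3059, 2778 and 4052 CPM in GRKO Paneth, 5322, 3806 and 4098 CPM in WT non-Paneth and 5932, 6899.9 and 7924 CPM in GRKO non-Paneth libraries. All GRKO Paneth libraries were below all WT Paneth libraries, and all GRKO non-Paneth libraries were above all WT non-Paneth libraries. Ascl2, a transcription factor of the stem cell programme that Wnt switches on, was at 43.2, 20.0 and 26.4 CPM in WT Paneth, 20.5, 21.3 and 26.7 CPM in GRKO Paneth, 25.99, 15.7 and 14.4 CPM in WT non-Paneth and 43.0, 46.6 and 53.0 CPM in GRKO non-Paneth libraries. Its GRKO non-Paneth libraries were above all others but WT Paneth replicate 1. Smoc2, a matricellular protein of the stem cell signature, was at 204, 180.0 and 203 CPM in WT Paneth, 149, 182 and 180.5 CPM in GRKO Paneth, 153, 123 and 138 CPM in WT non-Paneth and 246, 237 and 264 CPM in GRKO non-Paneth libraries. The GRKO non-Paneth libraries were above all 9 others, and WT Paneth was above WT non-Paneth. Orders between the sorts, here and in the following paragraphs on levels, are those of CPM and can differ under TMM scaling. Scaled by TMM, Smoc2 was at 158 to 178 in GRKO non-Paneth, below 224 to 230 in GRKO Paneth and 247 to 275 in WT Paneth libraries.

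Among the feedback genes, Axin2, a scaffold of the beta-catenin destruction complex, was at 163, 90.9 and 123 CPM in WT Paneth, 72.4, 98.2 and 117 CPM in GRKO Paneth, 167, 151 and 127 CPM in WT non-Paneth and 222, 209.9 and 212 CPM in GRKO non-Paneth libraries. Again the GRKO non-Paneth libraries were above all 9 others on CPM. Scaled by TMM, they were at 140 to 152 and overlapped with WT Paneth (139 to 198) and GRKO Paneth libraries (110 to 149). On CPM, GRKO Paneth was below WT non-Paneth without overlap, and WT Paneth overlapped with both. Rnf43, a ubiquitin ligase that removes Frizzled receptors, was at 109, 62.1 and 68.3 CPM in WT Paneth, 46.4, 65.8 and 67.9 CPM in GRKO Paneth, 94.95, 74.6 and 62.7 CPM in WT non-Paneth and 113, 92.5 and 105 CPM in GRKO non-Paneth libraries. GRKO Paneth and GRKO non-Paneth libraries were apart, and the 2 WT groups overlapped with each other and with both. Znrf3, the homologue of Rnf43, was at 16.30, 16.30 and 13.4 CPM in WT Paneth, 14.1, 24.1 and 22.5 CPM in GRKO Paneth, 12.1, 12.03 and 12.3 CPM in WT non-Paneth and 22.0, 22.8 and 21.9 CPM in GRKO non-Paneth libraries. Its WT non-Paneth libraries were below all others, and its GRKO Paneth libraries spanned the range from WT Paneth to GRKO non-Paneth.

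Tnfrsf19 (Troy), a receptor of the TNF family found on stem cells, was at 22.8, 20.8 and 20.6 CPM in WT Paneth, 10.7, 14.3 and 19.0 CPM in GRKO Paneth, 15.4, 13.4 and 12.4 CPM in WT non-Paneth and 20.0, 24.8 and 27.7 CPM in GRKO non-Paneth libraries. WT Paneth and GRKO non-Paneth libraries were above the other 2 groups. Sp5, a zinc finger transcription factor that is a direct Wnt target in many tissues, was at 17.6, 7.95 and 9.08 CPM in WT Paneth, 6.87, 7.23 and 8.03 CPM in GRKO Paneth, 22.2, 14.9 and 9.56 CPM in WT non-Paneth and 13.5, 14.5 and 21.5 CPM in GRKO non-Paneth libraries. Replicate 1 of both WT groups was high, and the GRKO Paneth libraries were below both non-Paneth groups.

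**Figure D1:**
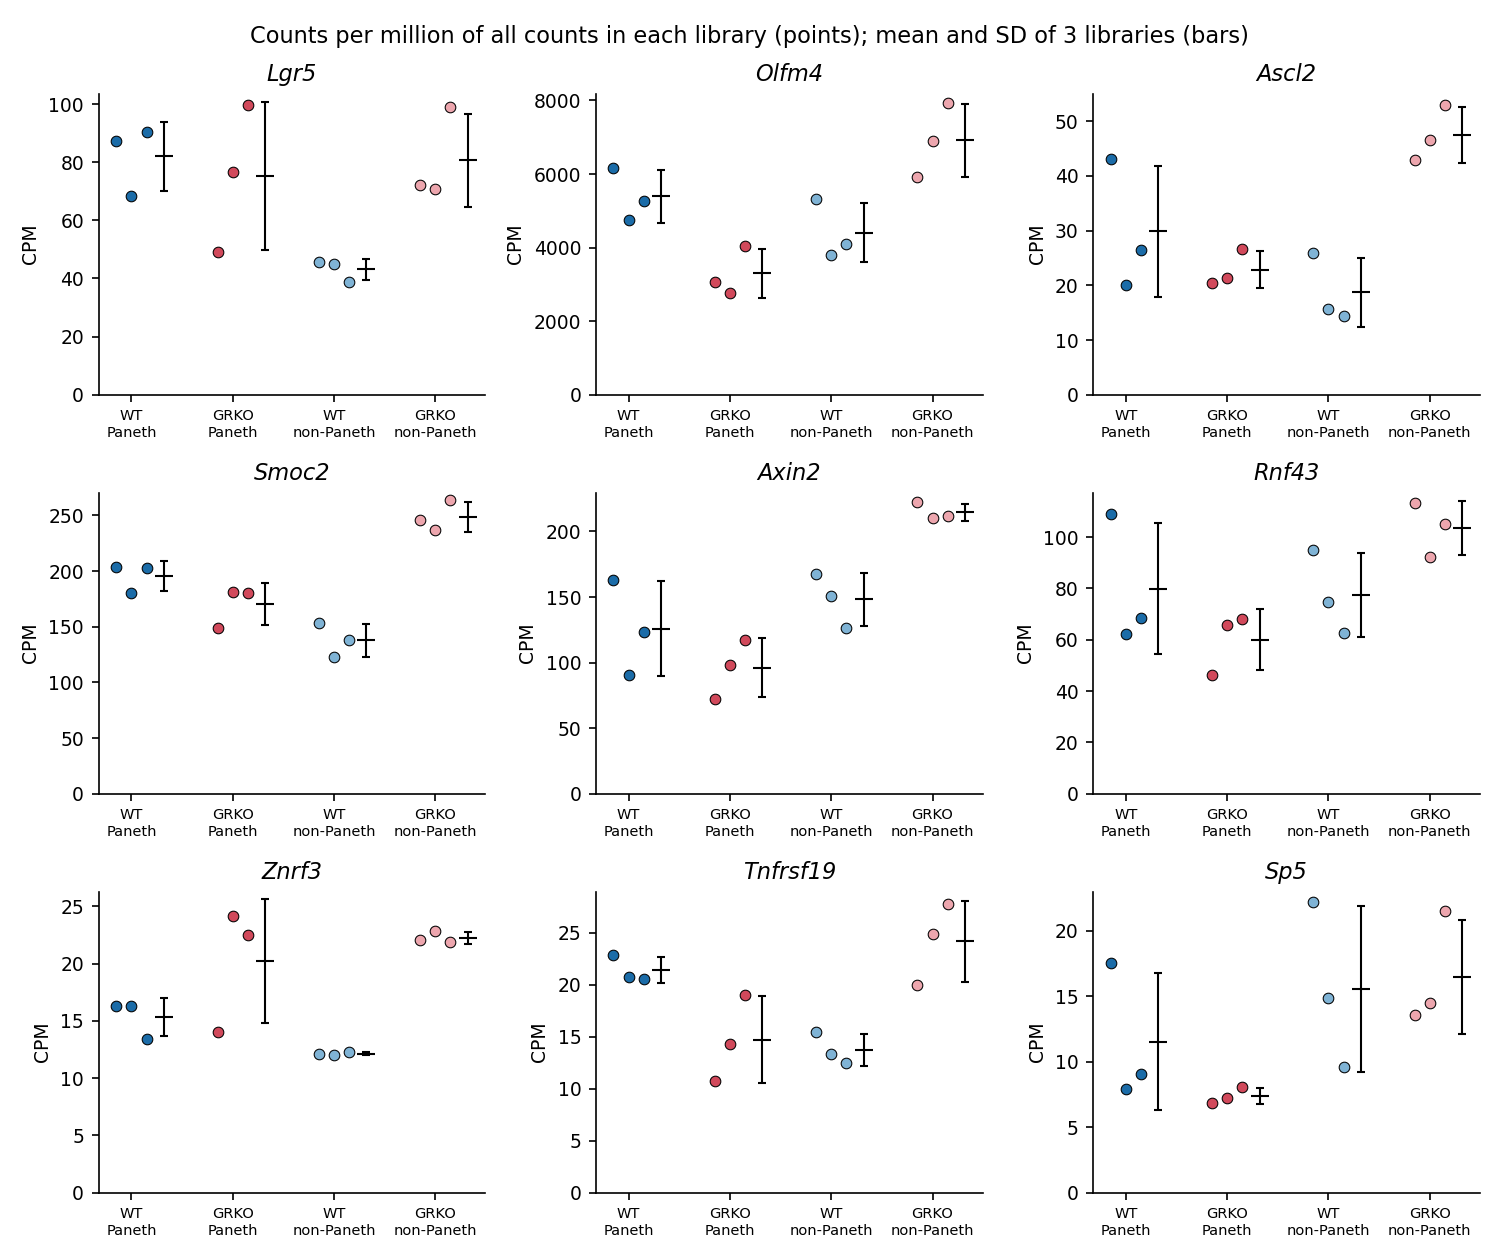
Levels of the 9 genes in each library, in CPM, on axes that start at 0. Points are libraries in the order of their replicate numbers, and bars give the mean and SD of 3 libraries. The GRKO non-Paneth libraries are above all others for Smoc2 and Axin2, at 237 CPM or more and at 209.9 CPM or more, and the WT non-Paneth libraries are below all others for Lgr5 and Znrf3. The order for Smoc2 and Axin2 holds on CPM alone. Under TMM scaling, GRKO non-Paneth libraries are below both Paneth groups for Smoc2 and overlap with them for Axin2.

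The comparison of WT Paneth with WT non-Paneth cells asked how these genes divide between the sorts when the receptor is intact. Relative to the median gene, 8 of the 9 were higher in Paneth libraries, where 24% of all 13057 genes tested were higher (edgeR, false discovery rate 5%). Lgr5 was 3.08-fold higher (log2 fold change 1.62, standard error 0.182, adjusted p = 2.8e-06), Ascl2 2.55-fold (1.35, 0.229, 0.000206), Tnfrsf19 2.54-fold (1.34, 0.173, 1.07e-05) and Smoc2 2.31-fold (1.21, 0.111, 3.48e-07). Znrf3 (log2 fold change 1.05), Olfm4 (0.99), Rnf43 (0.73) and Axin2 (0.44, adjusted p = 0.0242) also passed, and Sp5 did not (0.25, 95% interval −0.39 to 0.89, adjusted p = 0.513). The median of the 9 was 1.05, against 0.01 for all genes.

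With library totals only, 4 of them were higher in WT Paneth libraries (Lgr5 0.93, Ascl2 0.68, Tnfrsf19 0.64 and Smoc2 0.50 on the log2 scale), where 8.4% of all genes were, and Axin2 and Sp5 turned to −0.24 and −0.42 without passing the test. Axin2 also lost its call without WT Paneth replicate 1, without WT non-Paneth replicate 3, and when the fit held these 2 groups alone, with adjusted p of 0.0542 to 0.112. The 6 Paneth markers were all higher and the 6 enterocyte markers all lower in WT Paneth libraries, with summed enterocyte markers of 335 to 936 CPM against 19894 to 23396 CPM. The 4 tuft cell markers were all higher, with sums of 131 to 331 CPM against 3.80 to 10.5 CPM. All 4 enteroendocrine and 3 of the 5 goblet markers were lower, and mitochondrial genes took 1.19 to 2.48% of the counts in WT Paneth and 6.01 to 6.81% in WT non-Paneth libraries. The part of these differences in the result of the sorts was not tested.

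In GRKO cells, 3 of the 9 were higher in Paneth than in non-Paneth libraries, and 17.9% of all genes were. They were Lgr5 (1.81-fold, log2 fold change 0.85, standard error 0.178, adjusted p = 0.00141), Znrf3 (1.77-fold, 0.82, 0.154, 0.0006) and Smoc2 (1.34-fold, 0.42, 0.110, 0.00629). The others lay between −0.20 for Axin2 and 0.25 for Tnfrsf19 and did not pass. With library totals only, this picture turned round, since Lgr5, Smoc2, Znrf3, Rnf43 and Tnfrsf19 all changed sign and 7 of the 9 were lower in Paneth libraries. These were Axin2 (−1.16), Sp5 (−1.16), Olfm4 (−1.07), Ascl2 (−1.06), Rnf43 (−0.79), Tnfrsf19 (−0.72) and Smoc2 (−0.55), beside 76.3% of all genes that were lower. Lgr5 (−0.10) and Znrf3 (−0.14) did not pass on that scale. Without a filter on low counts, Smoc2 lost its call under TMM scaling (adjusted p = 0.1). The enterocyte markers summed to 431 to 745 CPM in GRKO Paneth and 5296 to 6537 CPM in GRKO non-Paneth libraries, and 5 of the 6 were lower, while all 4 tuft markers were higher in Paneth libraries. All 4 enteroendocrine markers were lower, of the 5 goblet markers 1 was higher and 2 lower, and mitochondrial genes took 0.779 to 1.08% and 2.85 to 3.04% of the counts. Their part was not tested.

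**Figure D2:**
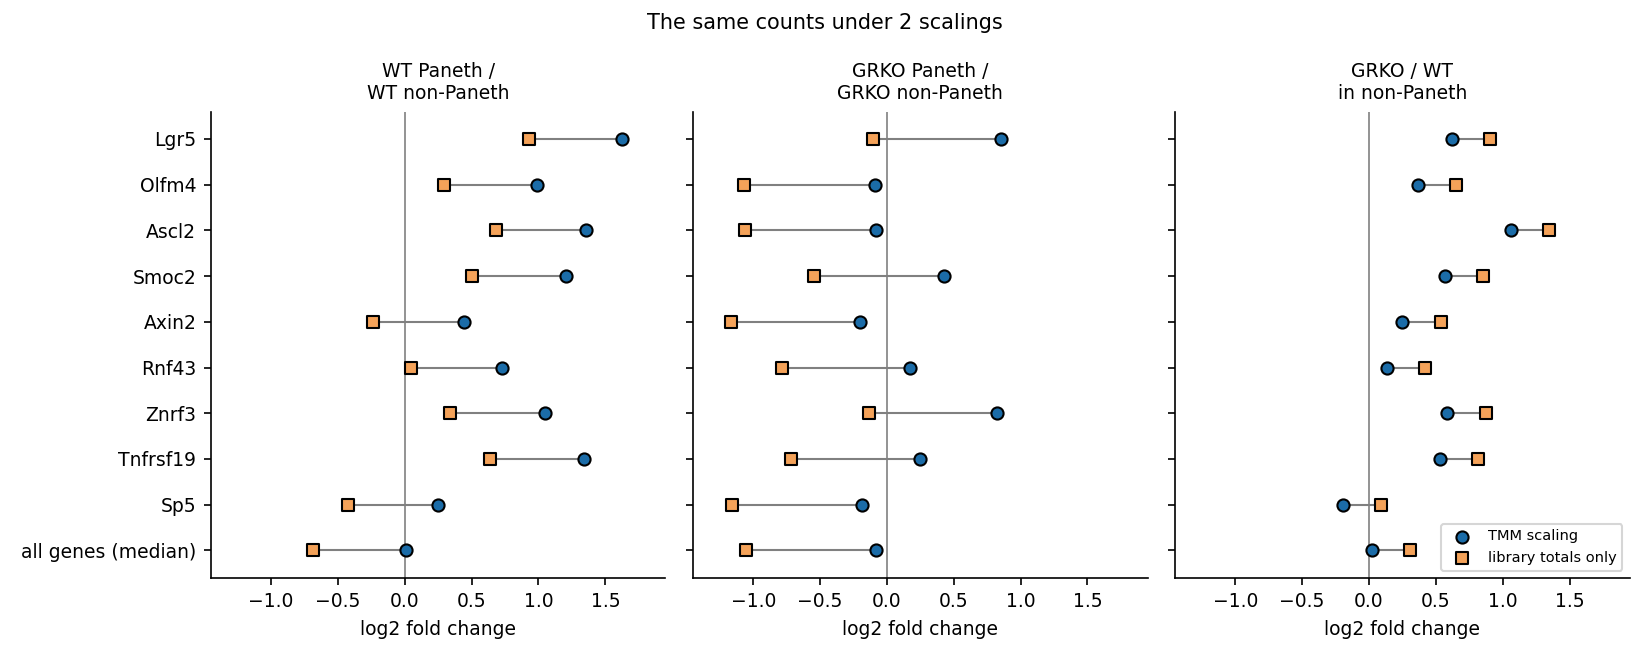
Log2 fold changes of the 9 genes and the median of all genes in 3 comparisons, with TMM scaling (circles) and with library totals only (squares). All genes move together by the shift of the median, from 0.01 to −0.68 in the left panel, from −0.08 to −1.05 in the middle and from 0.02 to 0.31 on the right, and in the middle panel Lgr5, Smoc2, Znrf3, Rnf43 and Tnfrsf19 change sign.

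Within Paneth cells, none of the 9 passed the test between GRKO and WT (edgeR, false discovery rate 5%), and 3.22% of all genes passed in either direction. Of the 9, 5 had an unadjusted p under 0.05, as did 3492 of all 13057 genes. Olfm4 was 1.64-fold lower in GRKO Paneth libraries (log2 fold change −0.71, 95% interval −1.12 to −0.31, adjusted p = 0.0519) and Tnfrsf19 1.48-fold lower (−0.57, −0.93 to −0.21, 0.0653). Rnf43 (−0.42), Axin2 (−0.39) and Znrf3 (0.36) had adjusted p of 0.142, 0.122 and 0.158. The interval for Lgr5 ran from −0.53 to 0.22. Here the scaling moved the values little, with −0.71 for Olfm4 and −0.54 for Tnfrsf19 by library totals. DESeq2 called 2 of the 9 (Olfm4 and Tnfrsf19, both lower), and without GRKO Paneth replicate 1 edgeR called 2, Olfm4 (lower) and Znrf3 (higher). The 3.22% above is that of the main fit. No share of all genes under these settings is given here, so these counts are no result about the 9. The 4 tuft markers summed to 318 to 873 CPM in GRKO Paneth and 131 to 331 CPM in WT Paneth libraries without passing the test, and their part was not tested.

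Within non-Paneth cells, 5 of the 9 were higher in GRKO than in WT libraries, and 17.5% of all genes were. Ascl2 was 2.09-fold higher (log2 fold change 1.06, standard error 0.225, adjusted p = 0.00238), Lgr5 1.53-fold (0.62, 0.178, 0.0137), Znrf3 1.4999-fold (0.58, 0.156, 0.00858), Smoc2 1.48-fold (0.56, 0.110, 0.00112) and Tnfrsf19 1.44-fold (0.53, 0.169, 0.0234). Olfm4 (0.36, 95% interval −0.04 to 0.77), Axin2 (0.25, −0.07 to 0.57), Rnf43 (0.14) and Sp5 (−0.20) did not pass. The median of the 9 was 0.53, against 0.02 for all genes. With library totals only, Olfm4 (0.65) and Axin2 (0.54) joined the 5 and made 7 of 9, beside 33.3% of all genes, and Sp5 turned to 0.09. Lgr5 and Tnfrsf19 lost their calls without WT non-Paneth replicate 3 or without GRKO non-Paneth replicate 3, which left 3 of 9, and Tnfrsf19 also without replicate 2 of either group and with the GC content and length correction with a replicate block (adjusted p up to 0.114 for Lgr5 and 0.148 for Tnfrsf19 over all alternatives).

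The 2 non-Paneth groups also differed in the markers of other cells. Summed enterocyte markers were at 5296 to 6537 CPM in GRKO and 19894 to 23396 CPM in WT non-Paneth libraries, although 2 of the 6 passed the test on their own. Summed tuft markers were at 92.8 to 369 CPM and 3.80 to 10.5 CPM, with all 4 higher. Of the 5 goblet markers 2 were lower in GRKO (median log2 fold change −1.03), and of the 6 Paneth markers 1 was higher. Mitochondrial genes took 2.85 to 3.04% of the counts in GRKO and 6.01 to 6.81% in WT non-Paneth libraries. All 8 proliferation genes examined were higher in GRKO non-Paneth libraries, with log2 fold changes of 0.84 for Mcm2, 0.83 for Top2a and 0.78 for Mcm6. The part of these differences in the result was not tested.

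**Figure D3:**
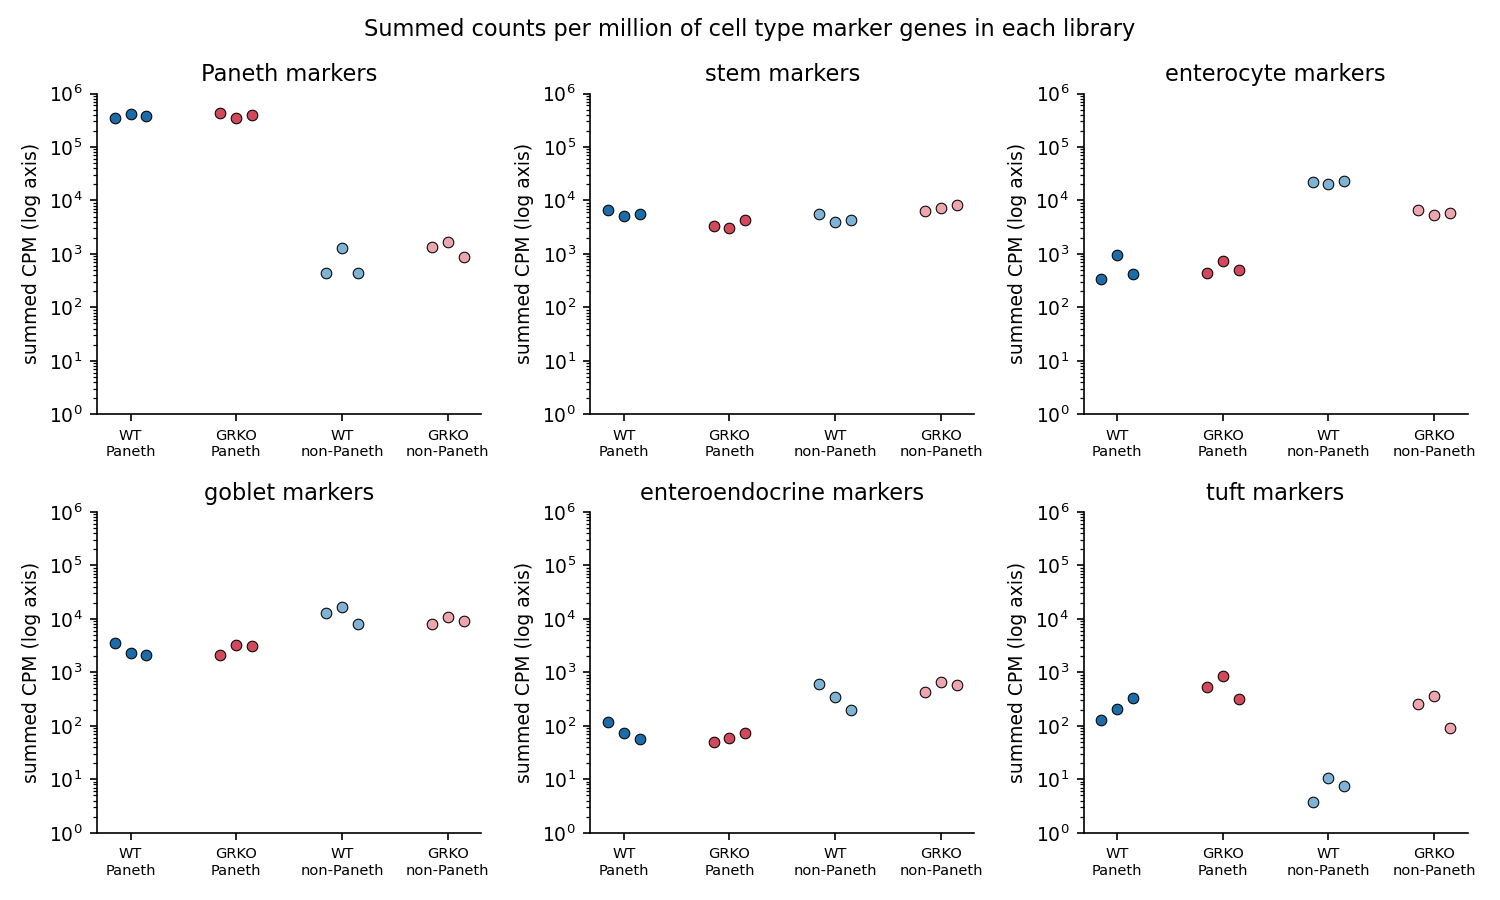
Summed CPM of marker genes of 6 cell types in each library, on log axes of 1 range. The stem markers are Lgr5, Olfm4, Ascl2 and Smoc2, which are all among the genes followed here, so that panel is no separate measure of stem cells. Enterocyte markers are at 19894 to 23396 CPM in WT non-Paneth and 5296 to 6537 CPM in GRKO non-Paneth libraries, and tuft markers are lowest in WT non-Paneth libraries, at 3.80 to 10.5 CPM.

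The effect of the genotype differed between the sorts. The interaction, the GRKO against WT log2 difference in Paneth libraries minus that in non-Paneth libraries, was negative and past the threshold for 6 of the 9 genes, where 7.27% of all genes were. It was −1.44 for Ascl2 (standard error 0.319, adjusted p = 0.00793), −1.10 for Tnfrsf19 (0.241, 0.00667), −1.08 for Olfm4 (0.270, 0.0136), −0.78 for Smoc2 (0.155, 0.00373), −0.77 for Lgr5 (0.251, 0.0443) and −0.64 for Axin2 (0.215, 0.0492). Rnf43 (−0.55), Sp5 (−0.43) and Znrf3 (−0.23, 95% interval −0.69 to 0.24) did not pass. With genotype and replicate number together as a block, Rnf43 passed as well (edgeR, −0.55, adjusted p = 0.0437). This block also pairs the sorts in GRKO, where not every replicate was above the limit of the check of the pairing described below. With library totals only, all 9 were again negative, from −0.47 for Znrf3 to −1.74 for Ascl2, and 6 passed. The median of all genes lay at −0.28 on that scale, so the shift itself moved these values downward. The share of all genes that passed there is not given. For Ascl2, Tnfrsf19 and Smoc2 the call held in all 23 alternatives. Lgr5 lost it when any library but GRKO Paneth replicate 3 or GRKO non-Paneth replicate 1 or 2 was left out (adjusted p up to 0.119), and Axin2 when any but WT Paneth replicate 2 or GRKO Paneth replicate 3 was (up to 0.129). With RLE size factors in place of TMM, both lost it (adjusted p of 0.0559 for Lgr5 and 0.0687 for Axin2), which left 4 of 9, and Axin2 also lost it with at least 10 counts in every library of a group (0.0556). Olfm4 lost it when replicate 2 of both WT groups was left out (0.0617). The interaction was also negative for 3 of the 4 tuft markers (median −3.59) and positive for 1 of the 6 enterocyte markers (median 1.72), and their part was not tested. The interaction, both comparisons of genotypes and both of sorts share libraries and are not independent of each other.

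**Figure D4:**
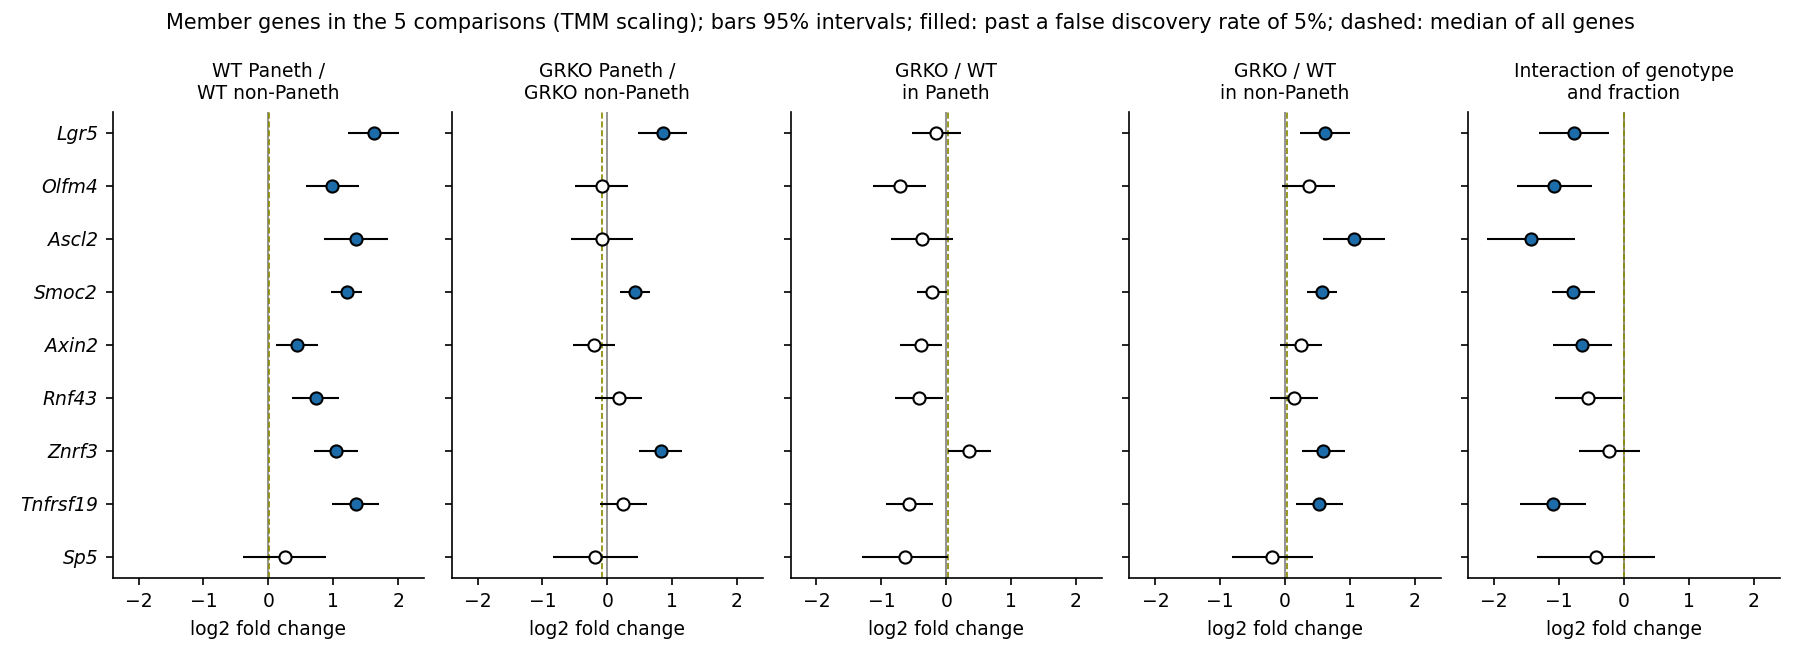
Log2 fold changes of the 9 genes in 5 comparisons with 95% intervals, under TMM scaling. Filled points passed a false discovery rate of 5%, open points did not, and the dashed line is the median of all genes. In WT the 9 genes lie between 0.25 and 1.62, and in the interaction between −1.44 and −0.23, while under library totals Axin2 and Sp5 in the first panel and Lgr5, Smoc2, Znrf3, Rnf43 and Tnfrsf19 in the second change sign.

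Ratios within a library do not depend on any scaling, and counts of each gene per Lgr5 count were compared for that reason. Axin2 gave 1.33 to 1.87 counts per Lgr5 count in WT Paneth, 1.17 to 1.48 in GRKO Paneth, 3.26 to 3.67 in WT non-Paneth and 2.14 to 3.08 in GRKO non-Paneth libraries. Rnf43 gave 0.757 to 1.25, 0.681 to 0.945, 1.61 to 2.09 and 1.06 to 1.57 in the same order, and Sp5 0.101 to 0.201, 0.0805 to 0.140, 0.246 to 0.487 and 0.187 to 0.217. These 3 and Olfm4 were lower against Lgr5 in Paneth than in non-Paneth libraries of both genotypes without overlap. In all, 6 of the other 8 genes were so in WT, as were 85.3% of all other genes tested, and 6 of 8 in GRKO, as were 60.7%. Axin2, Rnf43 and Sp5 were also lower against Lgr5 in GRKO than in WT non-Paneth libraries, 3 of 8, beside 56.8% of all genes. Ascl2 gave 0.293 to 0.495 in WT Paneth, 0.268 to 0.417 in GRKO Paneth, 0.350 to 0.571 in WT non-Paneth and 0.535 to 0.659 in GRKO non-Paneth libraries, and Tnfrsf19 was lower in GRKO Paneth (0.187 to 0.218) than in WT Paneth libraries (0.228 to 0.304). Between the Paneth groups no share of all genes was taken, so the order of Tnfrsf19 there is a description alone. Set beside the shares of all genes given above, the other counts among the 8 are a description and not a result about them.

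**Figure D5:**
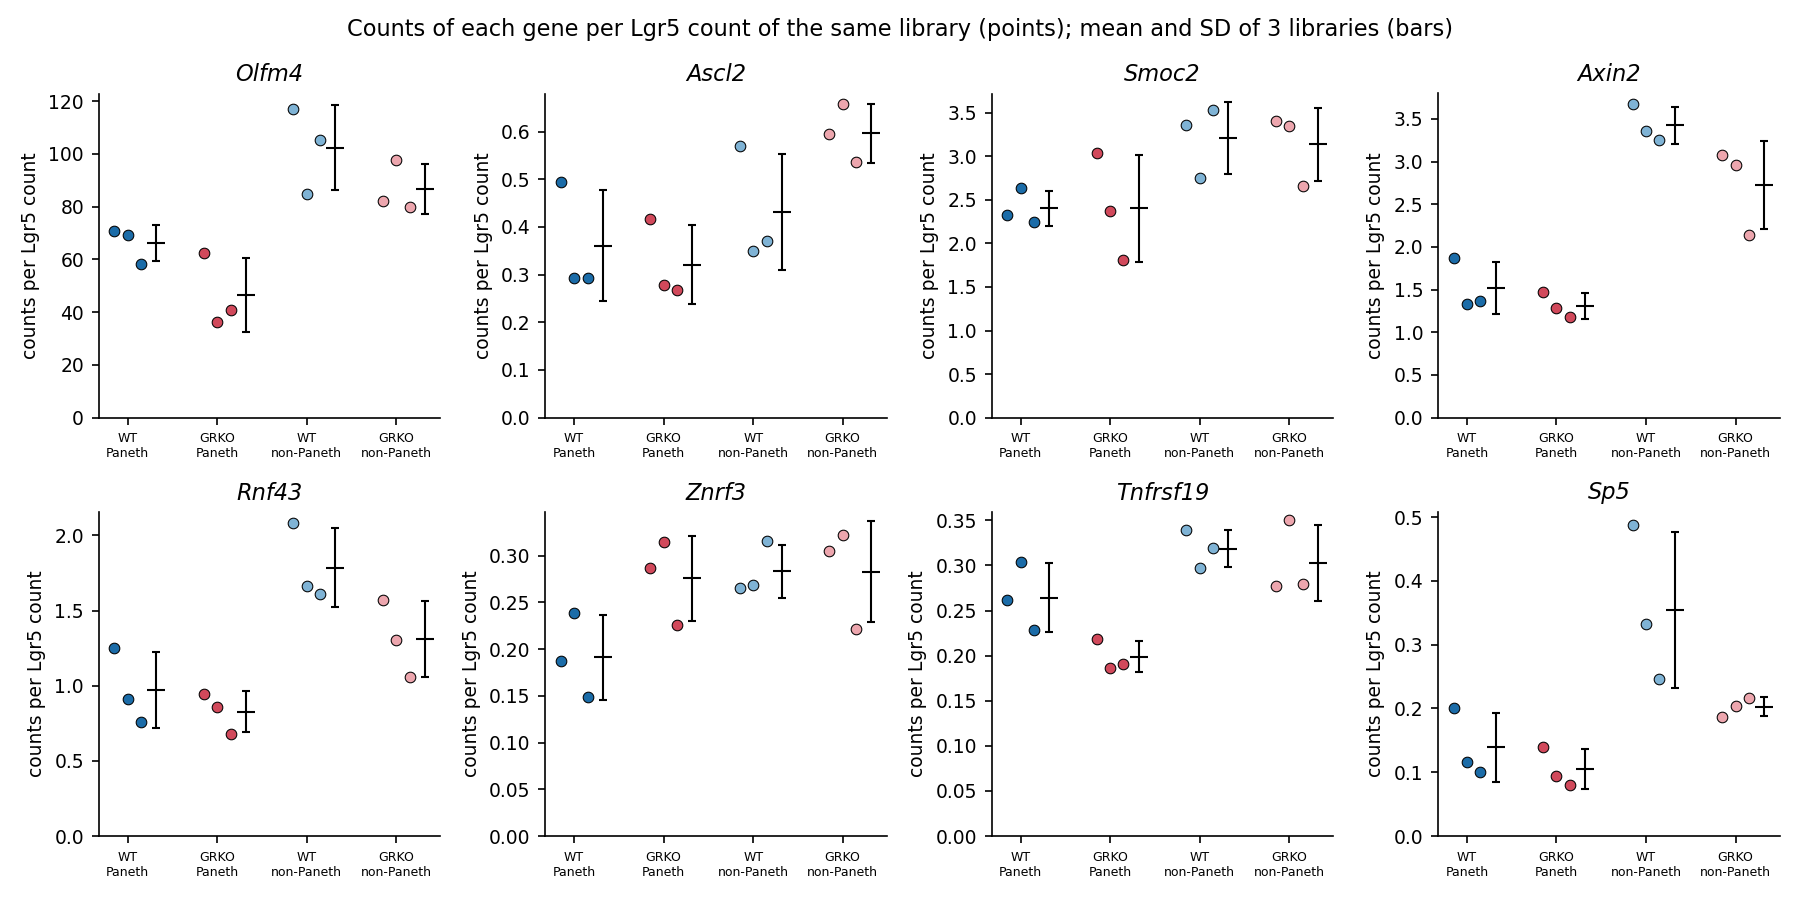
Counts of 8 genes per Lgr5 count of the same library, with the mean and SD of 3 libraries as bars and axes that start at 0. For Axin2 the Paneth libraries lie between 1.17 and 1.87 and the non-Paneth libraries between 2.14 and 3.67.

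Other genes of the pathway were taken from lists made by function, with earlier results of these data known. Their counts are thus no independent support. Of all 13057 genes, 24% were higher in Paneth libraries in WT and 17.9% in GRKO. Between the non-Paneth groups 17.5% were higher in GRKO, and 7.27% had a negative interaction past the threshold. Of 15 other Wnt and beta-catenin targets, 14 were tested and Lef1 fell under the filter. In WT, 12 were higher in Paneth than in non-Paneth libraries and none lower (on mean CPM, 2 of the 12, Cd44 and Myc, lay the other way), with a median log2 fold change of 1.58 against 0.01 for all genes, of which 3133 were higher and 3491 lower. Bambi, a decoy receptor of the TGF-beta family, was at 129.7 CPM in WT Paneth and 1.34 CPM in WT non-Paneth libraries (log2 fold change 7.32, standard error 0.224). Nkd1, a Wnt inhibitor that binds Dishevelled, was at 18.0 and 1.04 CPM (4.81, 0.235). The secreted inhibitors Wif1 and Notum also passed, from low levels of 1.40 and 1.10 CPM in WT Paneth libraries. In GRKO cells, 8 were higher in Paneth libraries, of which Ets2 lay the other way on mean CPM, and Ccnd1 was lower, with a median of 0.94 against −0.08. Nkd1 passed between GRKO and WT Paneth libraries (log2 fold change 0.86, adjusted p = 0.0411), at 33.3 against 18.0 CPM, as 1 of 14. In non-Paneth libraries 9 of the 14 were higher in GRKO, led by Nkd1 (1.18), Prox1 (1.13) and Tcf7 (0.97), with a median of 0.65 against 0.02. The interaction was negative for Tcf7, Myc, Sox4 and Cd44, with a median of −0.59.

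Of 20 other genes of the crypt base stem cell signature, all were tested. In WT, 14 were higher in Paneth libraries (median 0.78 against 0.01 for all genes, with 5 of the 14 lying the other way on mean CPM), led by Msi1 (1.49), an RNA-binding protein of progenitors, and by Rgmb (1.48) and Soat1 (1.43). In GRKO, 4 were higher and 2 lower (median −0.11 against −0.08), all 4 of the former lying the other way on mean CPM, with Soat1 at 0.85 and Rgmb at 0.69, and with Clca3b at −0.61 and Aqp4 at −0.50. None passed between the Paneth groups (edgeR, median −0.26 against 0.03). In non-Paneth libraries 16 were higher in GRKO (median 0.66 against 0.02), led by Fstl1 (0.98), Slc14a1 (0.93) and Scn2b (0.82). The interaction was negative for 11 (median −0.86 against −0.01), led by Slc14a1 (−1.46), Igfbp4 (−1.28) and Scn2b (−1.10).

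Of 17 genes of the destruction and nuclear complexes, 15 were tested. In WT, Dvl2 (log2 fold change 0.80) and Bcl9 (0.71) were higher and Tle3 (−0.81), Dvl1 (−0.79), Gsk3a (−0.56) and Gsk3b (−0.51) lower in Paneth libraries, with a median of −0.09. Of all 13057 genes, 3133 were higher and 3491 lower there. In GRKO non-Paneth libraries, Axin1 (0.39) was higher and Dvl1 (−0.92), Tle3 (−0.69) and Tcf7l2 (−0.61) lower than in WT, and the interaction was positive for Dvl1, Tle3 and Tcf7l2. Over all genes, 2283 were higher and 2586 lower in GRKO non-Paneth libraries, and 1496 had a positive interaction past the threshold. Beside these numbers, the counts in this list are a description and not a result about it. None passed between the Paneth groups. Of 8 co-receptors, R-spondins and their receptors, 3 were tested. Lgr4, the relative of Lgr5, was higher in Paneth libraries in WT (0.74) and GRKO (0.77, the other way on mean CPM), and Lrp6, a Wnt co-receptor, was lower in WT (−0.46). Lgr6 and the 4 R-spondin genes fell under the filter. Of 9 reserve and injury-associated stem cell genes, 7 were tested, and Hopx was higher in Paneth libraries in WT (1.71) and GRKO (1.37). Tert (0.69) and Yap1 (0.34) were higher in GRKO than in WT non-Paneth libraries, and both were lower in Paneth libraries in GRKO. Of the 8 proliferation genes, Pcna (0.33) and Mcm2 (0.33) were higher in Paneth libraries in WT but lower on mean CPM, all 8 were lower there in GRKO (median −0.74), and the interaction was negative for 7 (median −0.85).

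The 9 genes also varied within groups. In log2 CPM under TMM scaling, less the group means, r between 2 members over the 12 libraries ran from −0.27 to 0.91 over 36 pairs, with a median of 0.36 and 31 pairs positive. Members of 1 library share its depth and scaling factor. In GRKO Paneth replicate 3 all 9 were above their group mean, and in WT non-Paneth replicate 1 and replicate 3 it was 8 of 9 and 1 of 9. GRKO Paneth replicate 3 also held the most Nr3c1 of its group, 12.1 CPM against 5.28 and 4.73 CPM. Its summed tuft markers were the lowest of the group, at 318 CPM against 539 and 873 CPM. The part of these differences was not tested. For 6 of the members, the genes with the most similar pattern over the 12 libraries were sought among 8773 genes with a mean of at least 10 CPM. They were Sorcs2 for Lgr5 (r = 0.97), Zfp593 for Olfm4 (0.95), Adi1 for Smoc2 (0.99), Dmpk for Axin2 (0.88), Limk2 for Rnf43 (0.93) and Abcc1 for Znrf3 (0.98). The next in order were Prss8 and Peli2 for Lgr5, Rpl36a and Rpl3 for Olfm4, Yif1b and Lfng for Smoc2, Afap1l1 and Zmym3 for Axin2, Sun2 and Faap20 for Rnf43, and Cd276 and Dagla for Znrf3. Members were left out of this search, and the 12 points share 4 groups and the scaling, so r is a description.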

How the data were processed

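RNA of sorted crypt cells was sequenced single-end from TruSeq stranded libraries. The RNA kit is given as RNeasy Plus Micro in the methods of the study and as Aurum in the labels. The authors aligned reads with STAR 2.7.10a to mm39 and took the counts during alignment, so the deposited table holds raw counts per Ensembl gene. FastQC, Trimmomatic 0.39 and DESeq2 are named in the submitters' processing notes. Of 55414 identifiers, 54749 (98.8%) were named through GENCODE vM39, whose release may differ from the one counted with. The members and gene lists were chosen with earlier results of these data known.

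The test was that of edgeR 4.0.16, run in R 4.3.3 (filterByExpr, TMM, robust glmQLFit, glmQLFTest) in 1 fit of 12 libraries with 1 mean per group, and p-values were adjusted by Benjamini-Hochberg over 13057 genes at a false discovery rate of 5%. The procedure was tested on simulated data. No set test was run. Within groups, chi-square per degree of freedom between libraries was 12.3 to 47.1, so no library was a repeat of another. No sequencing batch is given in the labels.

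To check whether replicate numbers pair libraries, deviations from group means were correlated. Between the sorts r was 0.35, 0.23 and 0.24 in WT, above the limit of 0.1, and 0.013, 0.26 and 0.47 in GRKO. Between genotypes it was 0.098, 0.16 and −0.098 in Paneth and −0.094, 0.17 and −0.085 in non-Paneth libraries. Every replicate was above that limit between the sorts in WT alone, so the numbers were taken to pair the 2 sorts there. Libraries of unlike number were not compared, so the check neither shows pairing in WT nor shows that the GRKO libraries are unpaired. The main fit held no block for pairs. As an alternative, the replicate block was genotype and replicate number together for the sorts and the interaction, and replicate number alone between genotypes.

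Alternatives were DESeq2 1.42.0, RLE factors, library totals only, scaling without Lyz1 and the Defa genes, no filter, at least 10 counts in every library of a group, only the groups compared, a false discovery rate of 1%, a replicate block, removal of GC content and length trends with and without it, each library left out, and replicate 2 left out of both WT groups. All members were named. From each list, called genes with the 3 largest log2 fold changes in each direction could be named, besides Nr3c1, genes under the filter and the 3 genes most similar to 6 members, and the others named were chosen after their values were seen.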

Additional observations from a re-analysis of the deposited data

Results flagged for a closer look

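For 6 genes the difference between GRKO and WT was not the same in the 2 sorts by the test of the interaction (edgeR, false discovery rate 5%). Of all genes, 7.27% had a negative interaction past the threshold. The interaction was −0.77 for Lgr5, −1.08 for Olfm4, −1.44 for Ascl2, −0.78 for Smoc2, −0.64 for Axin2 and −1.10 for Tnfrsf19 on the log2 scale. In each case the difference was below 0 in Paneth libraries without passing the test, and above 0 in non-Paneth libraries, where it passed for Lgr5, Ascl2, Smoc2 and Tnfrsf19. Over the 23 alternatives the call of the interaction was lost in 12 for Lgr5, in 13 for Axin2 and in 2 for Olfm4.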

How the results depend on the processing

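Library totals in place of TMM moved the comparisons of the sorts. The number of the 9 genes called in WT Paneth against WT non-Paneth libraries fell from 8 to 4, and in GRKO it rose from 3 (all higher) to 7 (all lower). This follows from its construction, since all genes shift together. Signs turned for Axin2 (−0.24) and Sp5 (−0.42) in WT, for Lgr5 (−0.10), Smoc2 (−0.55), Rnf43 (−0.79), Znrf3 (−0.14) and Tnfrsf19 (−0.72) in GRKO, and for Sp5 (0.089) between the non-Paneth groups. Between the Paneth groups, where 0 were called, DESeq2 called 2, no filter 3, at least 10 counts in every library of a group 2 and the GC content and length correction with a replicate block 2, with the replicate block alone calling 1 (Olfm4). At a false discovery rate of 1%, 3 were called between the non-Paneth groups and 3 for the interaction. With single libraries left out, the counts were 7 to 8 in WT, 3 to 3 in GRKO, 0 to 2 between the Paneth groups, 3 to 5 between the non-Paneth groups and 4 to 6 for the interaction. No share of all genes under the same setting is given beside the counts in this section. They describe the settings and are no result about the 9.

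With the replicate block, 8 were called in WT, 3 in GRKO, 5 between the non-Paneth groups and 7 for the interaction (Rnf43 besides the 6). By the check of the pairing, every replicate was above the limit between the sorts in WT alone. In GRKO, replicates 2 and 3 were above it and replicate 1 was not. Libraries of unlike number were not compared, so pairing is neither shown nor excluded in either genotype. Near 0, the uncalled value of Olfm4 in GRKO Paneth against GRKO non-Paneth libraries turned to 0.019 and that of Ascl2 to 0.023 with at least 10 counts, to 0.012 and 0.016 with the compared groups alone, and Olfm4 to 0.11 with the GC content and length correction, with and without the block. With single libraries left out, values that crossed 0 without a call ranged, on the log2 scale, from −0.090 to 0.68 for Sp5 in WT Paneth against non-Paneth libraries, and in GRKO from −0.22 to 0.12 for Olfm4, −0.18 to 0.0995 for Ascl2 and −0.23 to 0.15 for Sp5. Between genotypes they ranged from −0.37 to 0.016 for Lgr5 in Paneth and from −0.060 to 0.24 for Rnf43 and −0.52 to 0.078 for Sp5 in non-Paneth libraries. The interaction of Nr3c1 ranged from −0.15 to 0.64. The cause of changes other than that of library totals was not tested. Sp5, at 6.87 to 22.2 CPM the least counted together with Znrf3 and Tnfrsf19, had the widest intervals.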
